A study of Mus musculus with 9 samples.

Results

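Aminoacyl tRNA synthetases are the enzymes that join each amino acid to its transfer RNA. The genes were chosen by symbol: the cytosolic enzymes end in "ars" (with Eprs, Farsa, Farsb and Mars1 added) and the mitochondrial ones in "ars2". This gave 35 genes of the 18193 that have a probe set named for them alone, 19 cytosolic and 16 mitochondrial, and all 35 passed the filter on low signals and were tested among 13376 genes. They hold 72 probe sets, and the one with the highest mean signal stood for its gene.

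The data are 9 Affymetrix Mouse Genome 430 2.0 arrays of total RNA from D3-pOct4 mouse embryonic stem cells grown in medium with fetal bovine serum. One group (LIF) had 1000 U/ml of leukemia inhibitory factor, the cytokine that keeps such cells undifferentiated. A second (no LIF) had none, and the last (NO donor) lacked LIF but received 2 µM DETA/NO, which gives off nitric oxide. Each lasted 7 days and has 3 arrays, replicates 1, 2 and 3, from passages 31, 33 and 34. All cells are of 1 line, and the labels name no sort of the cells. The labels do not say how separate the cultures were, so p-values measure only the spread between these arrays.

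A synthetase uses ATP to activate its amino acid and then charges the matching tRNA, which the ribosome reads. In mammals several cytosolic synthetases sit together in a multi-synthetase complex held by scaffold proteins, while the mitochondrial enzymes are nuclear-encoded and imported to translate the few proteins of the mitochondrial genome. Many cytosolic synthetase genes are known targets of ATF4, the transcription factor of the amino acid response. The multi-synthetase complex is represented here by Eprs, Iars, Kars, Lars, Mars1, Qars and Rars. The other 12 cytosolic genes are Aars, Cars, Farsa, Farsb, Gars, Hars, Nars, Sars, Tars, Vars, Wars and Yars, and the mitochondrial genes are Aars2, Cars2, Ears2, Fars2, Hars2, Iars2, Lars2, Mars2, Nars2, Pars2, Rars2, Sars2, Tars2, Vars2, Wars2 and Yars2. Gars and Kars, which charge glycine and lysine, serve both compartments and are counted as cytosolic.

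Promoter windows of 300 bases, 250 before the transcription start and 50 after it, were found in RefSeq (GRCm38.p6) for 26 of the 35 genes, 12 cytosolic and 14 mitochondrial. They were searched on both strands for 3 motifs, and no match of one overlapped a match of another in the members. The amino acid response element core TGATGNAA is bound by C/EBP and ATF4 dimers. It lay in a window of 5 of 12 cytosolic genes (Aars, Gars, Iars, Tars and Yars) and of 0 of 14 mitochondrial ones. Of all 32851 windows of this length, 3.97% held it. The E-box CACGTG lay in a window of 4 of 12 cytosolic genes (Aars, Farsb, Iars and Tars) and of 1 of 14 mitochondrial ones (Ears2). Its share of all windows was 7.15%. The core GCATGCGC is that of NRF1, a factor that binds promoters of many nuclear genes for mitochondria. It lay in a window of 0 of 12 cytosolic and 3 of 14 mitochondrial genes (Rars2, Vars2 and Wars2). Its share of all windows was 2.71%. The member counts are of genes, while the shares of all are of windows. A gene with several windows would have more chances of a match, so these counts and shares are not like measures. A match is a description of letters, not a site shown to be used.

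Of these windows, 3 with the amino acid response element core and 2 with the NRF1 core are printed, all of genes whose array values follow. They were picked for holding a match, Vars2 and Rars2 after the matches were seen. The first core lay in 5 of 12 cytosolic genes and the second in 3 of 14 mitochondrial ones. So the printed windows are not typical of their class. Each runs 5′ to 3′ on the strand of its gene, with matches of the amino acid response element core (Gars, Iars and Yars) or of the NRF1 core (Vars2 and Rars2) in capitals. For Gars and Iars the capitals are the core read from the opposite strand, and the E-box of Iars is left in lower case. The windows are chr6:55037751-55038050 (plus strand) for Gars, chr13:49681880-49682179 (plus) for Iars, chr4:129189653-129189952 (plus) for Yars, chr17:35667543-35667842 (minus) for Vars2 and chr4:34614707-34615006 (plus) for Rars2.
Gars: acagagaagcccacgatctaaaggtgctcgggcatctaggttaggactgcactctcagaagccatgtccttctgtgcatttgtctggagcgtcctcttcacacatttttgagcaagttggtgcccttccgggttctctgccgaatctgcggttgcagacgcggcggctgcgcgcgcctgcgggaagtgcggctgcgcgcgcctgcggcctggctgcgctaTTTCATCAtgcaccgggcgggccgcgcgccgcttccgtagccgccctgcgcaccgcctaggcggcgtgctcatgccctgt
Iars: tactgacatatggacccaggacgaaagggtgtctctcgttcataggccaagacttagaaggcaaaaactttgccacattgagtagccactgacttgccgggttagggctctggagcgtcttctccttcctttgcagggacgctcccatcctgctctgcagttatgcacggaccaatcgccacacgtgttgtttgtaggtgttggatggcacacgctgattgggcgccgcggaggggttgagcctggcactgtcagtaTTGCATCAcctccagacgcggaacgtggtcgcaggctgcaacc
Yars: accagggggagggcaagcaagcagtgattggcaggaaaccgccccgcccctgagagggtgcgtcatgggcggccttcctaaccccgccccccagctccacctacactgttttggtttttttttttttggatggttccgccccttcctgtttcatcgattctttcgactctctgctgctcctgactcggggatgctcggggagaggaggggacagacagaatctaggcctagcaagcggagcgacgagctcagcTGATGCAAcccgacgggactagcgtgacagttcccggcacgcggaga
Vars2: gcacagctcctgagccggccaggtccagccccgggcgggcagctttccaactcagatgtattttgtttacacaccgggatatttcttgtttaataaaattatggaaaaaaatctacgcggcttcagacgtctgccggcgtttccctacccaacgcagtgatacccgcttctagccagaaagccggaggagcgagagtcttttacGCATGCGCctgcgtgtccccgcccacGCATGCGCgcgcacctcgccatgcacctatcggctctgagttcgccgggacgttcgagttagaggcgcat
Rars2: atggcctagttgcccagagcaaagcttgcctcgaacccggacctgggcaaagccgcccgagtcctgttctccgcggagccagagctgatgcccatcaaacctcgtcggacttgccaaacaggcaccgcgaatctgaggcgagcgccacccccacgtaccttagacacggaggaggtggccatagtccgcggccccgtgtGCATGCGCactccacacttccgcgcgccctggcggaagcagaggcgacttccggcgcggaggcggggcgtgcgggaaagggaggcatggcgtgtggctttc
The match begins 30 bases before the start in Gars, at base 7 after it in Iars and at base 3 in Yars. In Vars2 the matches begin 46 and 20 bases before the start, and in Rars2 51 bases before it.

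Facts of the whole series bear on every value below. Arrays were scaled by the authors to 1 common trimmed mean, yet the median signal ran from 20.8 to 23.3 on LIF replicate 1 and NO donor replicates 1 and 2 and from 13.9 to 17.8 on the other 6; these 3 arrays are called brighter. Socs3, a target of LIF signalling, read 3213, 282 and 1794 in LIF replicates 1 to 3, 102, 3054 and 330 without LIF and 95.8, 405 and 127 with the donor, so the arrays labelled LIF replicate 2 and no LIF replicate 2 go against their labels. No LIF replicate 1 and NO donor replicate 3 were the most alike of all pairs of arrays, with r = 0.977. The actin 3′ to 5′ signal ratio was 1.52 to 3.15, highest on no LIF replicate 3. The 10 embryonic stem cell markers were all tested, with a summed signal of 17527 to 25766 with LIF, 19604 to 31005 without and 13946 to 18369 with the donor. Of the markers of other cells, 5 of 6 of trophoblast summed to 665 to 10781, 678 to 10788 and 4225 to 13391 in the same order, with Elf5 not tested. The 7 of primitive endoderm summed to 540.2 to 4660, 317 to 1575 and 329.9 to 698, the 4 of neuroectoderm to 106 to 160, 123 to 156 and 145 to 193, and 3 of 6 of fibroblasts to 53.8 to 125, 50.7 to 131 and 52.3 to 96.9. Their part in the results was not tested. In bulk RNA, fewer cells of a type and less RNA per cell cannot be told apart.

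Without LIF, most cytosolic synthetase genes read somewhat higher than with LIF and the mitochondrial ones were evenly split, but no gene of either class passed the test. Of the 19 cytosolic genes, 13 read higher and 6 lower, with a median log2 difference of 0.23 (range -0.36 to 0.74). Of the 16 mitochondrial genes, 8 read higher and 8 lower, with a median of -0.01 (range -0.63 to 0.74). Over all tested genes the median was 0.01, and over the 2834 genes in the signal range of the cytosolic members it was 0.17, with 1799 of them higher. So the cytosolic median lies near that of other genes of like signal. Limma with Benjamini-Hochberg adjustment over all tested probe sets called 0 of 35 members, against 0.0% of all tested genes, and 0 of 35 had an unadjusted p under 0.05, against 1.12%. The median standard error of a member's log2 difference was 0.38 for cytosolic and 0.41 for mitochondrial genes. By passage the cytosolic median was 0.39, 0.25 and 0.03, and the mitochondrial one -0.24, 0.01 and 0.43. It was 0.05 without LIF replicate 1, 0.10 without no LIF replicate 2 and 0.44 without LIF replicate 2 for the cytosolic genes. Without both replicate 2 arrays that go against their labels it was 0.23, with 13 of 19 higher, and without the alike pair 0.22, with 17 of 19 higher.

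Under other scalings 13 of 19 cytosolic genes were higher after quantile normalization (median 0.10) and 17 of 19 after median centring (median 0.45), and 10 and 11 of 16 mitochondrial genes were (medians 0.13 and 0.21). The cytosolic median less the mitochondrial one was 0.24 as deposited and turned to -0.04 after quantile normalization, so the order of the classes did not hold. With array brightness as a block the cytosolic median was 0.07 and the mitochondrial one -0.03. These scalings moved the median of all tested genes to 0.12 and 0.23 (median centring) in the same comparison, so the counts are to be read against that shift.

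**Figure D1:**
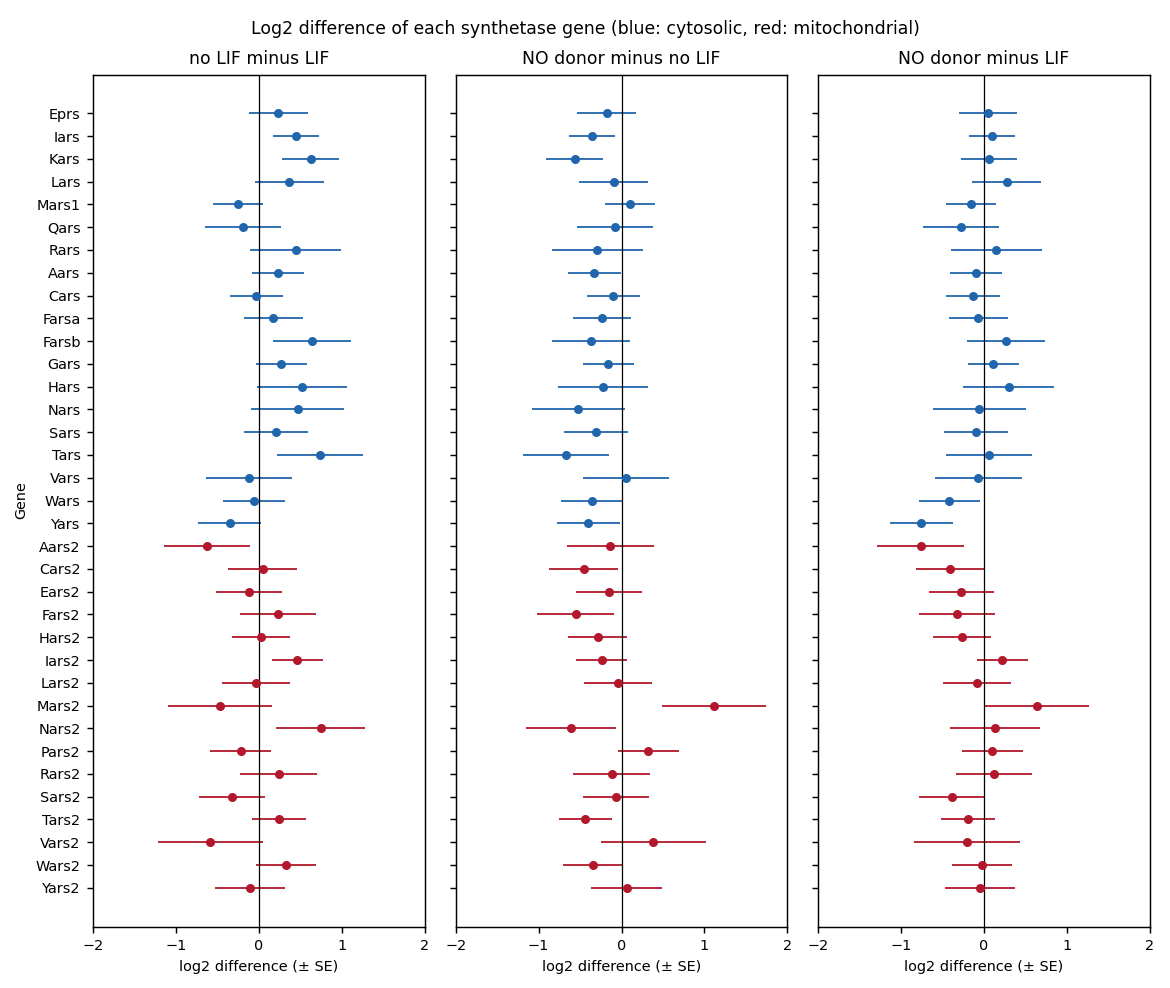
Log2 difference and its standard error (x axis) of each of the 35 synthetase genes (y axis) in the 3 comparisons, cytosolic genes in blue and mitochondrial genes in red. In the comparison of donor with no LIF 17 of 19 blue points lie left of 0, and no gene was called in any comparison.

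Lysyl tRNA synthetase, Kars, had the smallest p of the 35 genes in this comparison. Its signal was 900.3, 1704 and 1698 with LIF, 1688, 2345 and 2410.3 without it, and 1082, 1502 and 1814 with the donor. LIF replicate 1 was lowest and no LIF replicates 2 and 3 stood above all others, yet the groups overlapped because no LIF replicate 1 read no higher than 2 LIF arrays. The means were 1434 ± 462, 2148 ± 399 and 1466 ± 368 (SD, n = 3 each), and the log2 difference of no LIF from LIF was 0.62 (SE 0.34, adjusted p = 0.973 by limma), in the same direction in 3 of 3 passages.

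Isoleucyl tRNA synthetase has a cytosolic gene, Iars, and a mitochondrial one, Iars2, and these came next. Iars read 989.7, 1465 and 1172 with LIF, 1665, 1783 and 1458 without it, and 1172, 1137 and 1544 with the donor. Only LIF replicate 2 reached into the no LIF range, and the log2 difference was 0.45 (SE 0.28, adjusted p = 0.973 by limma). Iars2 read 234, 257 and 225 with LIF, 277, 329 and 389.5 without it, and 319.5, 256 and 262 with the donor. It was the single member of 35 whose no LIF arrays all lay above the LIF arrays, where 3.64% of all tested genes did the same, and its log2 difference was 0.46 (SE 0.31, adjusted p = 0.973 by limma). A second, dimmer probe set of Iars2 had a difference of the opposite sign, -0.23. No member lay wholly lower without LIF, where 3.68% of all tested genes did.

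With the NO donor, most synthetase genes of both classes read lower than without LIF alone, and again none passed the test. Of the cytosolic genes 17 of 19 read lower, with a median of -0.29 (range -0.67 to 0.10), and of the mitochondrial genes 12 of 16, with a median of -0.14 (range -0.61 to 1.11). The median over all tested genes was -0.02. Of the 2834 genes in the cytosolic members' signal range 1909 read lower, with a median of -0.17, and of the 8061 in the mitochondrial range 4033 did. The 2 cytosolic exceptions were Mars1 and Vars, for methionine and valine, with differences of 0.10 and 0.05. Within the cytosolic class both sets were mostly lower, 6 of 7 genes of the multi-synthetase complex (median -0.18) and 11 of 12 others (median -0.32) being lower. The catalytic domains fall into 2 structural classes, and Eprs was counted in class I only. Of class I 14 of 19 genes read lower and of class II 15 of 16, with medians of -0.12 and -0.32. Each structural class mixes cytosolic and mitochondrial genes. Neither was set beside genes of like signal or read under other scalings.

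Limma called 0 of 35 members at the adjusted threshold, against 0.0% of all tested genes, and 0 of 35 had an unadjusted p under 0.05, against 2.33%. No member's donor arrays lay wholly above or below the no LIF arrays, where 3.78% and 2.88% of all tested genes did. The passage medians were -0.51, -0.44 and -0.01 for the cytosolic and 0.01, 0.09 and -0.43 for the mitochondrial genes, so the classes did not move alike from passage to passage. The cytosolic median was -0.16 without no LIF replicate 2 (13 of 19 lower) and -0.15 without NO donor replicate 1 (14 of 19 lower). The mitochondrial one was -0.05 without NO donor replicate 1 and -0.30 and -0.26 without no LIF replicates 1 and 2. Without the alike pair the medians were -0.44 and -0.26. With quantile normalization 14 of 19 cytosolic and 13 of 16 mitochondrial genes read lower, with median centring 19 and 13, and these scalings moved the median of all tested genes to -0.14 and -0.25. In a fit that blocks on array brightness the cytosolic median was -0.08, with 11 of 19 lower, and the mitochondrial median -0.29. The cytosolic median less the mitochondrial one was -0.15 as deposited, 0.14 after quantile normalization and 0.20 with that block, so here too the order of the classes turned.

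Methionyl tRNA synthetase of mitochondria, Mars2, had the smallest p here and was higher with the donor. It read 7.77, 13.6 and 16.9 with LIF, 16.4, 13.8 and 1.07 without it, and 29.0, 24.9 and 12.1 with the donor. Its signals lay below the median of their arrays, except on no LIF replicate 1 and NO donor replicates 1 and 2. The donor readings of 29.0 and 24.9 stood against medians of 22.4 and 20.8, and both are brighter arrays. The single value of 1.07 sets much of the difference of donor from no LIF. The log2 difference of donor from no LIF was 1.11 (SE 0.62, adjusted p = 0.929 by limma), higher in 3 of 3 passages, with NO donor replicate 3 inside the no LIF range. Kars was next, with -0.56 (SE 0.34, adjusted p = 0.929 by limma) and lower in 3 of 3 passages, and its values were given above.

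Threonyl tRNA synthetase of mitochondria, Tars2, read 233, 303 and 261 with LIF, 257, 319.9 and 373 without it, and 195, 268 and 234 with the donor. NO donor replicate 1 was the lowest array and no LIF replicate 3 the highest, and the groups overlapped in 1 pair, NO donor replicate 2 lying above no LIF replicate 1. The log2 difference was -0.44 (SE 0.32, adjusted p = 0.929 by limma), lower in 3 of 3 passages. Tars2 also has a second, dimmer probe set, whose difference was small and of the opposite sign, 0.02. Its cytosolic counterpart Tars, chosen after its values were seen, had the most negative difference of the cytosolic class, -0.67 (SE 0.52), and its signals were 1033, 1012 and 615 without LIF and 361, 412 and 1057 with the donor. NO donor replicate 3 was the highest of these 6 arrays.

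Donor and LIF were compared last; the comparison shares its arrays with both others. The cytosolic genes were split, 9 higher and 10 lower with a median of -0.05 (range -0.76 to 0.30), while 11 of 16 mitochondrial genes read lower, with a median of -0.14 (range -0.76 to 0.64). With the mean of all tested probe sets of a gene the mitochondrial direction turned, 9 of 16 being higher with a median of 0.05. The median over all tested genes was -0.01. Limma called 0 of 35, against 0.0% of all tested genes, and 0 of 35 had an unadjusted p under 0.05, against 1.76%. The cytosolic split turned with single arrays, 17 of 19 being lower (median -0.21) without LIF replicate 1 and 12 of 19 higher (median 0.21) without LIF replicate 2. The cytosolic median was 0.14 without NO donor replicate 1. The mitochondrial median was -0.26 without NO donor replicate 2, and -0.08 without LIF replicate 2 or without NO donor replicate 1.

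Tyrosyl tRNA synthetase, Yars, whose promoter carries the amino acid response element core, had the smallest p. It read 462, 551 and 416 with LIF, 231, 585 and 370.5 without it, and 279, 323 and 242 with the donor. The 3 donor arrays all lay below the 3 LIF arrays, which was so for 1 of 35 members and for 3.57% of all tested genes, while the no LIF arrays spanned both groups. The means were 477 ± 68.6 with LIF and 281 ± 40.7 with the donor (SD, n = 3 each), a log2 difference of -0.76 (SE 0.38, adjusted p = 1.0 by limma). It was -0.72, -0.77 and -0.78 in the 3 passages, a description only, since the data do not show that replicate numbers pair the arrays. No member lay wholly higher with the donor than with LIF, where 2.68% of all tested genes did.

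Alanyl tRNA synthetase of mitochondria, Aars2, read 130.3, 69.6 and 102 with LIF, 30.1, 128 and 61.1 without it, and 43.7, 81.6 and 49.7 with the donor. NO donor replicate 2 lay above LIF replicate 2, and the log2 difference of -0.76 (SE 0.52, adjusted p = 1.0 by limma) was lower in 2 of 3 passages. Tryptophanyl tRNA synthetase, Wars, read 238, 414 and 399 with LIF, 282, 398 and 310.0 without it, and 179, 292 and 311 with the donor. LIF replicate 1 lay within the donor range, and the log2 difference was -0.42 (SE 0.37, adjusted p = 1.0 by limma), lower in 3 of 3 passages. The 3 other probe sets of Wars, a gene also known for its induction by interferon, had differences of the same sign.

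**Figure D2:**
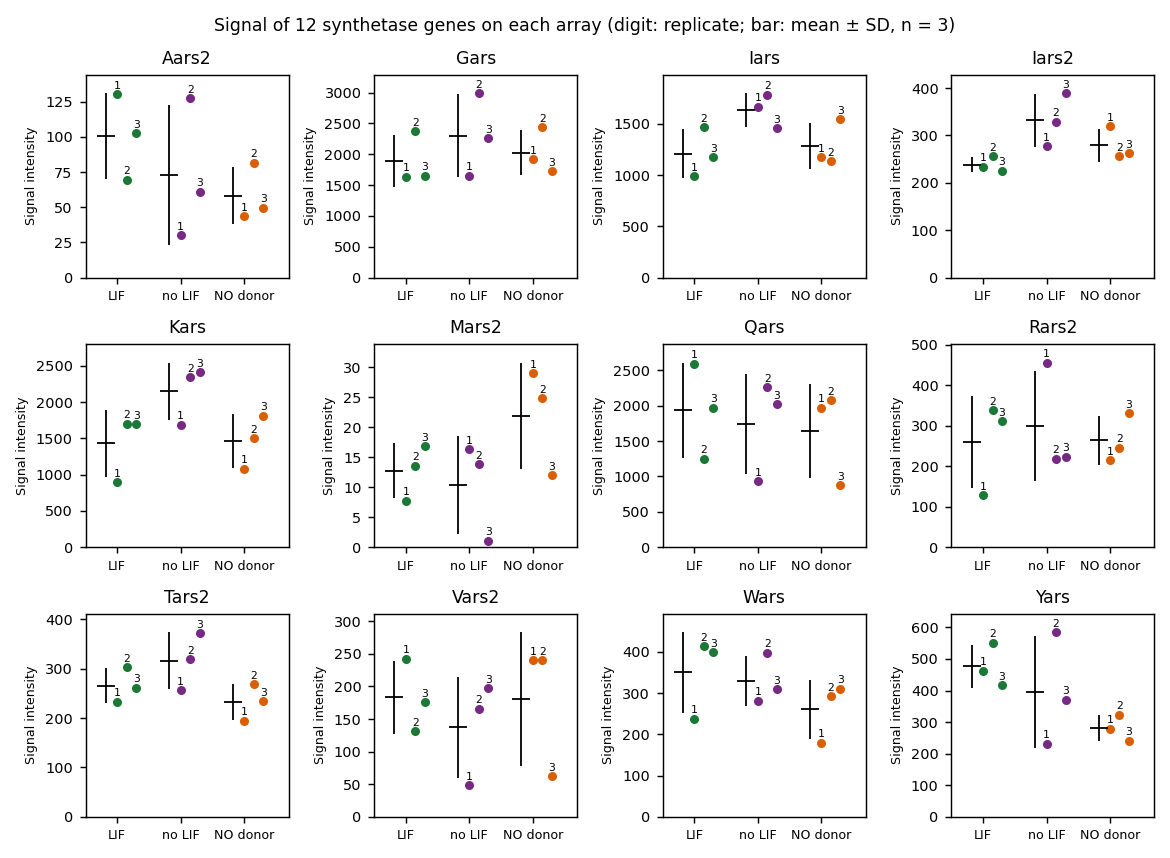
Deposited signal (y axis, linear from 0) of 12 synthetase genes on the 9 arrays, with the replicate number over each point and the mean ± SD (n = 3) beside each group. The LIF and donor points of Yars do not overlap, and those of the no LIF group span both.

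The remaining genes with values were taken for their high signal or large spread, and their groups overlapped in all 3 comparisons. Glycyl tRNA synthetase, Gars, read 1634, 2369 and 1654 with LIF, 1652, 2993 and 2263 without it, and 1918, 2436 and 1726 with the donor. In every group its replicate 2 was the highest, and the log2 difference of no LIF from LIF was 0.27 (SE 0.31). Glutaminyl tRNA synthetase, Qars, read 2593, 1249 and 1972 with LIF, 933 without LIF in replicate 1, then 2262 and 2021, and 1975, 2077 and 878 with the donor. Both members of the alike pair, no LIF replicate 1 and NO donor replicate 3, were its lowest arrays, and its differences were -0.19, -0.08 and -0.28 (SE 0.46) for no LIF from LIF, donor from no LIF and donor from LIF.

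Valyl tRNA synthetase of mitochondria, Vars2, had the second largest spread of the 35 genes, an SD of 0.83 on the log2 scale over 9 arrays, after Mars2 with 0.87. It read 242, 131 and 176 with LIF, 48.6, 166 and 197 without it, and 240.2, 240.0 and 62.6 with the donor. Its lowest arrays were again the alike pair, and its differences were -0.59, 0.39 and -0.20 (SE 0.64) in the order used for Qars. Arginyl tRNA synthetase of mitochondria, Rars2, read 128 on LIF replicate 1, then 338 and 311, 456, 219 and 224 without LIF, and 214, 246 and 332 with the donor. Its differences were 0.24, -0.12 and 0.12 (SE 0.46), and LIF replicate 1 was lowest and no LIF replicate 1 highest.

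The level of the cytosolic class differed between the brighter and the other arrays and overlapped between the groups. This level on an array, taken as the mean deviation of its genes from their own means less that of all tested genes, was -0.41, 0.18 and -0.01 with LIF, 0.14, 0.41 and -0.01 without it, and -0.27, -0.16 and 0.12 with the donor. The group means were -0.08 ± 0.30, 0.18 ± 0.21 and -0.10 ± 0.20 (SD, n = 3 each). The 3 brighter arrays lay at -0.41 to -0.16 and the other 6 at -0.01 to 0.41, with no overlap. For the mitochondrial class the level was 0.11, 0.01 and -0.04 with LIF, -0.06, 0.12 and 0.06 without it, and -0.12, 0.02 and -0.12 with the donor. Its brighter arrays (-0.12 to 0.11) and the others (-0.12 to 0.12) covered nearly the same range, with NO donor replicate 1 the lowest of all 9. The median signal of an array moved with the cytosolic level, and its part in the result was not tested beyond the block for brightness given above.

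**Figure D3:**
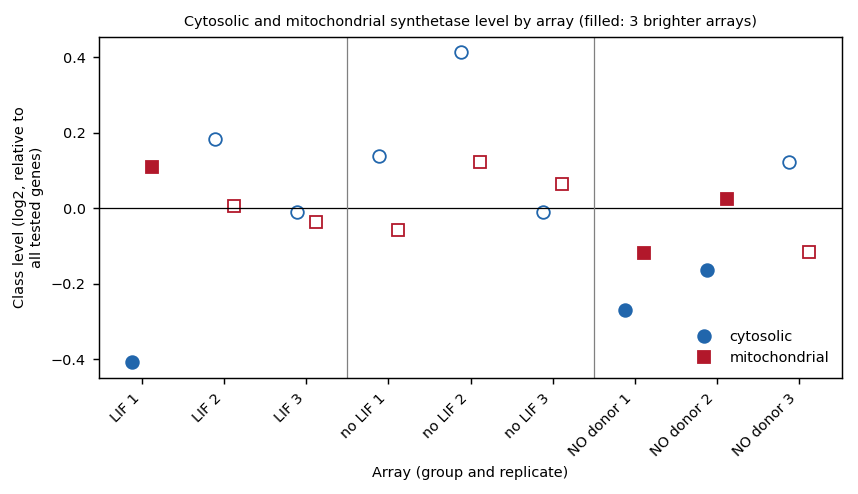
Level of the cytosolic (blue circles) and mitochondrial (red squares) synthetase genes on each array (x axis), as the mean log2 deviation relative to all tested genes (y axis), with the 3 brighter arrays filled. Filled circles lie at -0.41 to -0.16 and open circles at -0.01 to 0.41, while the squares overlap.

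Gene by gene, 5 of 19 cytosolic members (Farsb, Kars, Nars, Rars and Tars) were lower on all 3 brighter arrays than on any other, and 0 of 19 were higher. Over all tested genes 9.04% were lower and 6.5% higher in this way, and among genes in the cytosolic signal range 18.8% were lower and 5.36% higher. The share of cytosolic members lies near that of genes of like signal. Of the mitochondrial members 0 of 16 were lower and 2 of 16 higher (Pars2 and Vars2), where genes in their signal range had 6.8% lower and 6.77% higher.

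The 5 low genes and others were chosen after their values were seen. Farsb, the beta subunit of phenylalanyl tRNA synthetase, read 387, 1182 and 882 with LIF, 1405, 1099.6 and 990.4 without it, and 578, 806 and 1512 with the donor. Rars, the cytosolic arginyl enzyme, read 429.6, 1549 and 1140.4 with LIF, 1843, 1003 and 1036 without it, and 651, 798 and 1999 with the donor. Nars, for asparagine, read 587, 2113 and 1240.2 with LIF, 2615, 1488 and 1042 without it, and 851, 742 and 2174 with the donor. In all 3 genes no LIF replicate 1 and NO donor replicate 3 stood highest, whatever their group, with LIF replicate 2 next. Vars, for valine, had the opposite order, with 1153, 601 and 773 with LIF, 362, 1123 and 1019 without it, and 1026, 1093 and 415 with the donor.

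LIF replicate 1 was the lowest array for 10 of 19 cytosolic genes (52.6%), against 19.0% of all tested genes. These were Eprs, Farsb, Gars, Hars, Iars, Kars, Lars, Nars, Rars and Tars. The highest array was no LIF replicate 2 for 7 (36.8%, against 10.8% of all tested genes), namely Aars, Cars, Gars, Iars, Mars1, Sars and Yars, and NO donor replicate 3 for 5 (26.3%, against 11.2%), namely Farsb, Hars, Lars, Rars and Tars. So the arrays labelled no LIF replicate 2, whose Socs3 was high, and NO donor replicate 3, of the alike pair, held most maxima of different cytosolic genes. No share in this paragraph was taken among genes of like signal, so an excess cannot be read as particular to the class. LIF replicate 1 is a brighter array. Of genes in the cytosolic signal range 18.8% were lower on all 3 brighter arrays, against 9.04% of all tested genes. Among mitochondrial genes LIF replicate 1 and no LIF replicates 1 and 3 were each highest for 4 of 16 (25.0%), against 16.8%, 12.1% and 12.3% of all tested genes. No LIF replicate 1 was lowest for 5 of 16 (Aars2, Fars2, Pars2, Sars2 and Vars2) and NO donor replicate 1 for another 5 (Cars2, Ears2, Hars2, Nars2 and Tars2), each 31.2%, against 16.7% and 17.4%.

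**Figure D4:**
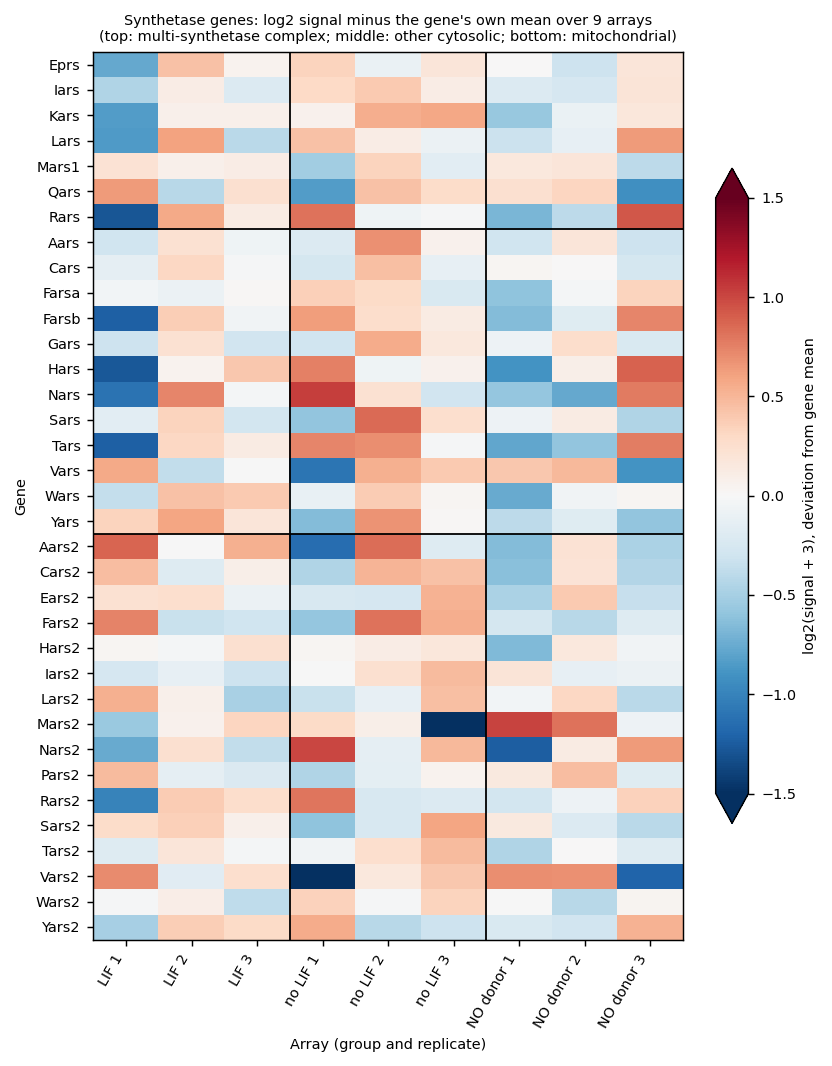
Deviation of each synthetase gene (y axis) from its own mean over the 9 arrays (x axis), as log2(signal + 3), red above and blue below, with lines between the multi-synthetase complex, the other cytosolic genes and the mitochondrial genes. LIF replicate 1 is the lowest array for 10 of 19 cytosolic genes, against 19.0% of all tested genes. The columns of no LIF replicate 1 and NO donor replicate 3 look alike.

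Members of a class did not all vary together. Over the 9 arrays the median Pearson r was 0.39 among the 171 cytosolic pairs (range -0.88 to 0.97, 28 above 0.8), 0.10 among the 120 mitochondrial pairs and 0.10 among the 304 mixed pairs. These points share their array, its brightness and the alike pair, so r is a description only. The highest values were 0.97 for Qars with Vars, 0.97 for Farsb with Rars and 0.96 for Vars with Vars2. The lowest were -0.95 for Vars with Yars2, -0.91 for Nars with Pars2 and -0.91 for Qars with Yars2. Qars and Rars, both of the multi-synthetase complex, had r = -0.88.

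The 17 pairs of cytosolic and mitochondrial enzymes for the same amino acid had a median r of 0.32, from -0.80 for Eprs with Pars2 to 0.96 for Vars with Vars2, and 6 were below 0. Rars with Rars2 had r = 0.92 and Nars with Nars2 0.71. The 5 cytosolic genes with the amino acid response element core had a median r of 0.43 over their 10 pairs (range -0.09 to 0.91), near the 0.39 of all cytosolic pairs. The 3 genes with the NRF1 core had r from -0.79 to 0.20. A gene's other probe sets followed the brightest one with a median r of 0.87 for 21 cytosolic probe sets and 0.12 for 13 mitochondrial ones, so the mitochondrial values depend more on the probe set chosen. Of the 34 other tested probe sets, 24, 18 and 16 had the sign of the brightest in the 3 comparisons (no LIF from LIF, donor from no LIF and donor from LIF).

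**Figure D5:**
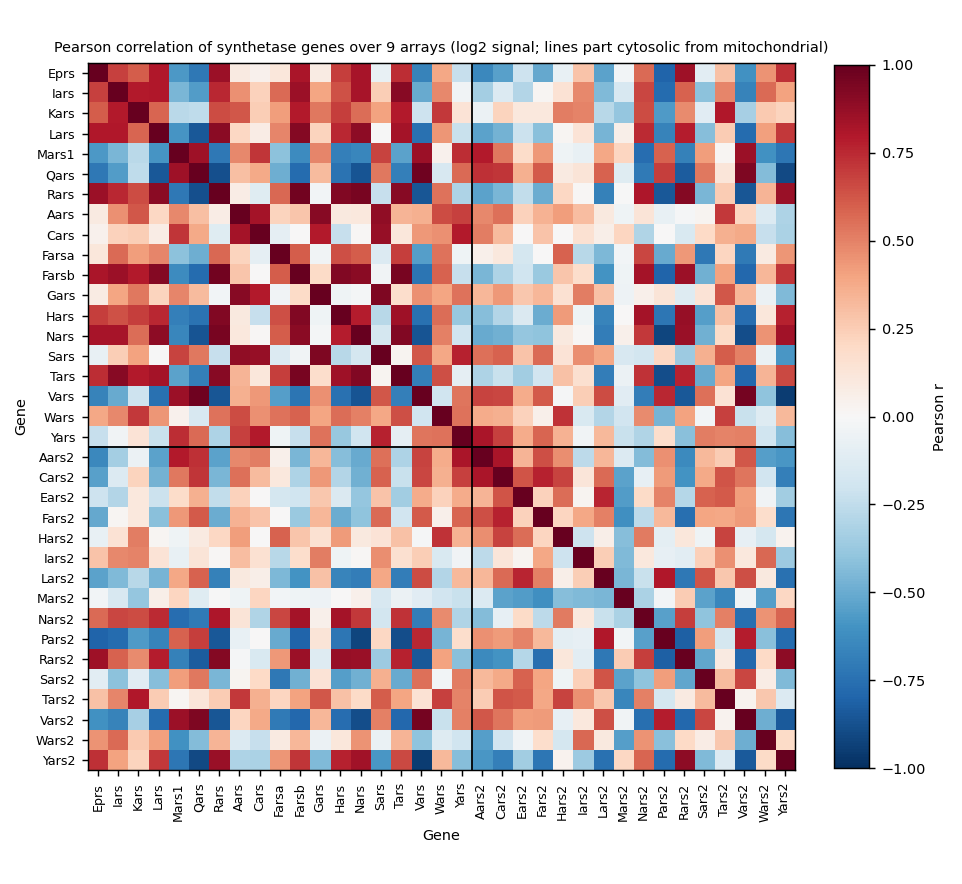
Pearson r over the 9 arrays between all pairs of the 35 synthetase genes (both axes), red above and blue below 0, with lines between cytosolic and mitochondrial genes. Qars and Vars (r = 0.97) run opposite to Rars, Farsb and Nars within the cytosolic square.

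Other genes of the pathway were read from lists, and limma called none of them at the adjusted threshold. The direction counts of each list are to be read against those of all tested genes. Of these, 50.4% read higher without LIF than with it. With the donor 52.4% read lower than without LIF and 50.9% lower than with LIF. In the cytosolic members' signal range 63.5% read higher without LIF than with it and 67.4% lower with the donor than without LIF. An unadjusted p under 0.05 was reached by Tarsl2 between no LIF and LIF and by Ddit3 between donor and no LIF. Cebpb reached it between donor and LIF. The shares of all tested genes that reached it were 1.12%, 2.33% and 1.76%. Groups of some genes named below did not overlap, and these genes were taken for the smallest p of their list. Over all tested genes 3.64% lay wholly higher without LIF than with it. With the donor 2.88% lay wholly lower than without LIF and 3.57% wholly lower than with LIF. The scaffold proteins of the complex (Aimp1, Aimp2 and Eef1e1) with 2 synthetase relatives (Tarsl2 and Aarsd1) had 5 of 5 higher without LIF than with it (median 0.53) and 5 of 5 lower with the donor than without LIF (median -0.64). Tarsl2, a second threonyl enzyme, read 2.56, 25.5 and 18.5 with LIF, 36.3, 60.3 and 43.2 without it, and 8.19, 19.9 and 36.9 with the donor. Its no LIF arrays all lay above its LIF arrays, with a log2 difference of 1.69 (SE 0.66, adjusted p = 0.973 by limma). LIF replicate 1, a brighter array, was the lowest. Its value of 2.56 lies below the 3 added before taking logs and below that array's median of 23.3. This single value sets much of the difference. Aarsd1, an editing protein related to the alanyl enzyme, read 278, 327 and 396 without LIF and 120.3, 216 and 237 with the donor, without overlap, a log2 difference of -0.84 (SE 0.40, adjusted p = 0.929 by limma). On the brighter arrays this list lay at -0.93 to -0.41 relative to all genes, and on the others at -0.01 to 0.67. Tarsl2 also had the smallest p of the list between donor and LIF, with a difference of 0.53 (adjusted p = 1.0 by limma), where 2 of 5 read higher.

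The 21 genes of tRNA processing and modification had 19 higher and 2 lower without LIF than with it (median 0.22), 8 higher and 13 lower with the donor than without LIF (median -0.12), and 15 higher and 6 lower with the donor than with LIF (median 0.17). On the brighter arrays the list lay at -0.42 to -0.13 and on the others at -0.18 to 0.55. Nsun2, a tRNA cytosine methyltransferase, read 425, 942 and 859.7 with LIF and 1505, 1035 and 1214 without. Its groups did not overlap, with a log2 difference of 0.82 (SE 0.42, adjusted p = 0.973 by limma). Pop5, a subunit of RNase P, which trims the 5′ end of tRNAs, read 417, 592 and 499 without LIF and 238, 344 and 391 with the donor. Its donor arrays all lay below those without LIF, with a log2 difference of -0.64 (SE 0.34, adjusted p = 0.929 by limma). Against LIF the difference was -0.55 (adjusted p = 1.0 by limma). There the groups overlapped, NO donor replicate 3 (391) lying above LIF replicate 1 (362).

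Of 15 cytosolic initiation and elongation factors 13 were tested, with 11 higher without LIF (median 0.17), 11 lower with the donor than without LIF (median -0.14) and 7 lower with the donor than with LIF (median -0.02). Eif4a1, the helicase of cap-dependent initiation, read 3401, 3752 and 4789 with LIF, 4651, 4269 and 4206 without it, and 2218, 2728 and 4231 with the donor. Both brighter donor arrays were its lowest, with a log2 difference from no LIF of -0.57 (SE 0.28, adjusted p = 0.929 by limma) and from LIF of -0.42 (adjusted p = 1.0 by limma). Eef1d, an exchange factor subunit of elongation factor 1, was 0.44 higher without LIF (SE 0.26, adjusted p = 0.973 by limma). On the brighter arrays the list lay at -0.41 to -0.31 and on the others at -0.04 to 0.49.

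Of 15 mitochondrial translation factors 13 were tested, with 9 higher without LIF (median 0.29), 10 lower with the donor than without LIF (median -0.17) and 7 higher with the donor than with LIF (median 0.12). On the brighter arrays the list lay at -0.38 to -0.06 and on the others at -0.02 to 0.45, without overlap, and the part of brightness was not tested. Mrrf, the ribosome recycling factor, differed by 0.56 between no LIF and LIF (SE 0.39, adjusted p = 0.973 by limma). Tsfm, elongation factor Ts, differed by -0.63 between donor and no LIF (SE 0.41, adjusted p = 0.929 by limma). Guf1, a dim elongation factor gene, differed by 0.55 between donor and LIF (SE 0.53, adjusted p = 1.0 by limma).

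More amino acid response genes outside the synthetases read lower than higher in each comparison, and none was called. Of 25 listed, 23 were tested. Without LIF 8 read higher and 15 lower than with it (median -0.38), where 49.6% of all tested genes read lower. Against no LIF the donor had 9 higher and 14 lower (median -0.06), near the median of -0.02 over all tested genes. Of all tested genes 52.4% read lower there. Against LIF the donor had 6 higher and 17 lower (median -0.31), where 50.9% of all tested genes read lower. Atf4 itself read 1118, 1758 and 893 with LIF, 1438, 1545 and 865 without it, and 1029.5, 1238 and 1457 with the donor, with a log2 difference of 0.04 (SE 0.35) between no LIF and LIF. Asns, asparagine synthetase, which ATF4 induces, differed by -0.33 (SE 0.39) in the same comparison; both genes were chosen after their values were seen. Ddit3, the stress factor CHOP, read 78.6, 276 and 237 without LIF and 67.1, 61.1 and 56.1 with the donor. Its donor arrays all lay lower, with a log2 difference of -1.46 (SE 0.49, adjusted p = 0.929 by limma).

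Slc7a1, a transporter of cationic amino acids, read 2635, 1031 and 1986 with LIF and 289, 2052 and 645 without. Its groups overlapped, with the array labelled no LIF replicate 2 among the high ones, and the log2 difference was -1.27 (SE 0.81, adjusted p = 0.973 by limma). Cebpb, a partner of ATF4, read 106, 231 and 99.2 with LIF and 73.5, 54.3 and 63.6 with the donor, a log2 difference of -1.05 (SE 0.41, adjusted p = 1.0 by limma) without overlap. On the brighter arrays the amino acid response list lay at -0.10 to 0.25 and on the others at -0.57 to 0.49, and the ranges overlapped.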

How the data were processed

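Total RNA was hybridised to 9 arrays, and the labels do not say how separate the cultures behind them were. The deposited values are linear signal intensities for 45101 probe sets, which the authors made with GeneChip Operating System and global scaling, per the labels' design text, and with MAS5, per the submitters' processing notes. The 2 percent trimmed mean of each column was 100, and no further normalization was applied.

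Values were turned to log2(signal + 3). Control probe sets (64) were left out, and a probe set was tested if it reached its array's 40th percentile on at least 3 of 9 arrays, which left 29811. Low genes are understated on this scale. Symbols came from the platform annotation, where 34945 probe sets carry 1 symbol, 932 several and 9160 none. Levels of different probe sets served to pick a gene's brightest probe set, the brightest members and the genes of like signal. They were not read as differences in RNA amount between genes. One limma 3.58.1 fit (R 4.3.3, eBayes with intensity trend, two-sided) over all 9 arrays gave the 3 comparisons, with Benjamini-Hochberg adjustment over all tested probe sets at 0.05. Summaries used Python 3.11.15. Simulated data for no LIF against LIF, with the spread of the 29811 probe sets, tested the fit: changes of 1, 2, 3 and 4 (log2), given to 50 probe sets per size, were called in 2%, 16%, 58% and 72%, beside 2 false calls. With the spread divided by 3 they were called in 64%, 100%, 98% and 100%, beside 6 false calls. The spread between arrays and their number limit the precision.

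The members and lists were chosen with earlier results of these data known. Genes given with values by rule were the 3 members with the smallest p in each comparison, the 3 brightest of each class, the 2 with the largest spread, and the gene of smallest p in each related list. Values of Tars, Farsb, Rars, Nars, Vars, Atf4 and Asns were also given, and these genes were chosen after their values were seen. Alternatives were the pseudocount, filter, scaling, variance trend, arrays in the fit, replicate block, brightness block, choice of probe set and omission of each array.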

Additional observations from a re-analysis of the deposited data

How the results depend on the processing

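The settings were a pseudocount of 1 or 16, no filter, quantile normalization, median centring, no intensity trend, only the arrays compared, the replicate block, the mean of a gene's probe sets, array brightness as a block, the class medians without Gars and Kars, and the omission of single arrays, of the alike pair (no LIF replicate 1, NO donor replicate 3) or of both replicate 2 arrays against their labels. No member was called under any of them, and the lowest adjusted p of a member was 0.553 for no LIF from LIF, 0.322 for donor from no LIF and 0.767 for donor from LIF. The cytosolic median for no LIF from LIF was 0.451 with median centring, 0.0972 with quantile normalization, 0.0651 with the brightness block and 0.0506 to 0.444 without single arrays. The mitochondrial median for donor from LIF was 0.0544 with the mean of all probe sets. The signs of Kars, Iars and Iars2 (no LIF from LIF), Mars2, Kars and Tars2 (donor from no LIF) and Yars, Aars2 and Wars (donor from LIF) were kept throughout.

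The labels tie each replicate number to a passage, without saying that a passage was 1 shared culture. The deviations of same-numbered arrays had r from -0.597 to 0.65, so the data do not show whether the numbers pair them. Counts of passages with the same direction are therefore descriptions, given without a share of all tested genes. With the replicate block Kars had 0.62 (SE 0.25, limma adjusted p = 0.99) for no LIF from LIF, and 0 members were called.

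Several differences turned sign, among them some of the largest of the mitochondrial class (Vars2 and Mars2), and the cause was not tested. Without the alike pair, donor from LIF gave Iars -0.0479, Kars -0.11, Qars 0.126, Rars2 -0.0529 and Vars2 0.429, donor from no LIF gave Rars2 0.0539, and no LIF from LIF gave Qars 0.204, Rars2 -0.107, Vars2 0.0238 and Wars 0.046. Without both replicate 2 arrays, donor from no LIF gave Aars2 0.365, Gars 0.0525 and Qars 0.158. Quantile normalization gave Gars 0.082 and Qars 0.123 there. The brightness block gave Rars2 0.497, Vars2 -0.466 and Wars 0.0422 there, and Qars 0.127 and Rars2 -0.0686 for no LIF from LIF. Median centring gave Qars 0.0258 and Wars 0.161 for no LIF from LIF. Without single arrays the ranges for donor from LIF were Gars -0.0294 to 0.286, Iars -0.0479 to 0.239, Kars -0.246 to 0.262, Qars -0.56 to 0.126, Rars2 -0.317 to 0.37 and Vars2 -0.517 to 0.429. For donor from no LIF they were Aars2 -0.626 to 0.365, Gars -0.376 to 0.0525, Qars -0.479 to 0.32, Rars2 -0.297 to 0.228 and Vars2 -0.225 to 1.02. For no LIF from LIF they were Mars2 -0.882 to 0.243, Qars -0.479 to 0.204, Rars2 -0.201 to 0.487, Vars2 -0.953 to 0.0238 and Wars -0.314 to 0.0828.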
